A study of Mus musculus with 12 samples.

Results

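The genes followed here are 9 transcription factor genes of cartilage: the SOX trio (Sox9, Sox5 and Sox6), the RUNX genes (Runx1, Runx2 and Runx3) and Mef2c, Trps1 and Nkx3-2. They were taken by symbol from the 57010 Ensembl mouse gene IDs of the deposited count tables, and all 9 were present and passed the filter on low counts, as did 14253 IDs in all. Gene counts from poly(A)-selected mRNA were available for 12 libraries. Their source was primary chondrocytes of mice, the cells that make cartilage matrix, and the genotype label of all 12 is wild type. There were 4 libraries with the treatment label Control, 4 labelled WT and 4 labelled SIRT5F101L mutant. The last 2 groups were transfected with a plasmid, read here as one for wild-type SIRT5 and one for its SIRT5F101L mutant. SIRT5 is a sirtuin deacylase found mainly in mitochondria. The strain, age and number of the mice, the promoter of the plasmids and what the Control cells received are not given in the sources used here. Nothing states that replicates came from separate cultures or animals, so p-values measure the spread between these libraries, which may be technical. Replicate numbers follow the order of deposit and pair no libraries.

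SOX9 switches on cartilage genes such as Col2a1 and Acan, and SOX5 and SOX6, which lack an activation domain of their own, bind beside it and strengthen its action. RUNX proteins bind DNA as dimers with CBFB. RUNX2, with RUNX3 and MEF2C, drives chondrocytes into hypertrophy, the step before bone forms, while NKX3-2 is a homeobox repressor that holds chondrocytes back from it and TRPS1 is a GATA-type zinc finger repressor of the growth plate.

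Library totals ran from 18233484 to 19905485 counts in Control, from 15288294 to 19713318 in WT and from 15095357 to 24242139 in SIRT5F101L. Sirt5, the gene the plasmids are read as carrying, had 9 to 16 counts in Control, 1 to 9 in WT and 9 to 19 in SIRT5F101L. Whether plasmid transcripts are counted under this gene ID is not given in the sources used here, so these counts do not check the labels. All 8 chondrocyte markers were detected in every library, and their summed level was 8956 to 11271 CPM (the usual unit of counts relative to the library total, after TMM scaling) in Control, 2687 to 2801 in WT and 2183 to 2410 in SIRT5F101L. Most of the Control sum was Col2a1, and 6 of the 8 were lower in each plasmid group. Acan was higher in WT, and Hapln1 was higher in both plasmid groups. The 9 fibroblast markers, Col1a1 and Col3a1 among them, were all detected in Control and 7 of them in every library of each plasmid group, and they summed to 18352 to 21807, 7712 to 8789 and 7968 to 8855 CPM. Most of that sum was Col1a1 and Col3a1, and of the 8 tested 4 were lower (Col1a1, Col3a1, Dpt and Thy1) and 4 higher (Cd34, Pdgfra, Pdpn and Prg4) in each plasmid group. Of 8 macrophage and leukocyte markers, 7 were detected in every library and Itgam was listed at 0, and they summed to 169 to 204, 130 to 149 and 139 to 178 CPM. Most of the Control sum was Lyz2, and of the 7 tested 6 were lower and Cd14 was higher in each plasmid group. The 7 osteoblast markers, which include Col1a1, summed to 11191 to 13589, 3359 to 4123 and 3048 to 3864 CPM, with Ifitm5 at 0 in both plasmid groups. The 5 endothelial markers summed to at most 4.82 CPM in every library. The 6 skeletal muscle markers summed to 9.12 to 10.2 CPM in Control, 3.46 to 5.37 in WT and 2.72 to 4.33 in SIRT5F101L, with Ckm at 0 in both plasmid groups. The 4 adipocyte markers summed to 23.6 to 26.5, 29.6 to 34.9 and 24.7 to 37.9 CPM, with Cidec at 0 in Control and Adipoq at 0 in WT. In bulk RNA, fewer cells of a type and less RNA per cell cannot be told apart, and the part of these shifts in the results below was not tested. SIRT5F101L replicate 1 stood apart from its group, and results that rest on it are given with and without it.

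In Control chondrocytes Sox9 was the most abundant of the 9 per length of exon. Its level was 34.4 ± 0.386 CPM per kb (SD, n = 4), above 89.5% of the tested genes that had a length. Trps1 followed at 11.2 ± 0.880 and Runx1 at 10.3 ± 0.625 CPM per kb, and the libraries of these 2 genes overlapped. Runx2 (5.19 ± 0.307) and Sox6 (4.79 ± 0.415) overlapped in the same way, as did Nkx3-2 (3.15 ± 0.444) and Sox5 (2.67 ± 0.338). Runx3 lay at 0.586 ± 0.194 CPM per kb, and Mef2c was lowest at 0.108 ± 0.0175, above only 3.52% of tested genes. Mef2c had 25 to 38 counts per Control library, so its fold changes are the least precise of the 9. In both plasmid groups the order on this per-length scale was the same for Sox9, Trps1 and Runx1, while the mean of Sox5 lay above that of Sox6, and the mean of Runx3 above that of Nkx3-2. In WT Sox5 stood at 4.398 and Sox6 at 3.54 CPM per kb, and Runx3 at 1.34 and Nkx3-2 at 1.14, with overlap between the libraries of the last pair and between those of Sox5 and Runx2 (4.82). In SIRT5F101L the same pairs stood at 5.69 and 3.81, and at 1.31 and 0.965, and Sox5 overlapped with both Sox6 and Runx2 (also 5.69).

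The first comparison set the WT libraries against Control. What the Control cells received is not given. The SIRT5 insert and transfection itself therefore cannot be told apart in either comparison with Control. Of the 9 genes, 8 differed from Control in edgeR's quasi-likelihood test, 2 higher (Sox5 and Runx3) and 6 lower (Sox9, Sox6, Runx1, Mef2c, Trps1 and Nkx3-2). Among all tested genes 56.8% differed, 28.7% higher and 28.1% lower. The groups did not overlap for the same 8 genes, against 53.5% of tested genes. The exception was Runx2. The count of 8 is to be read against these shares.

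For SIRT5F101L against the same Control libraries, 6 of the 9 genes differed, against 60.7% of tested genes. Sox5 and Runx3 were higher, where 30% of tested genes were, and Sox9, Sox6, Runx1 and Nkx3-2 were lower, where 30.7% were. There was no overlap between groups for 5 of the 9, all but Runx1 of those called, against 51.3% of tested genes. Both comparisons use the same 4 Control libraries and are therefore not independent of each other. Without SIRT5F101L replicate 1, 6 genes again differed, where 63.2% of tested genes did, but Runx2 was now among them, higher, and Runx1 was not.

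**Figure D1:**
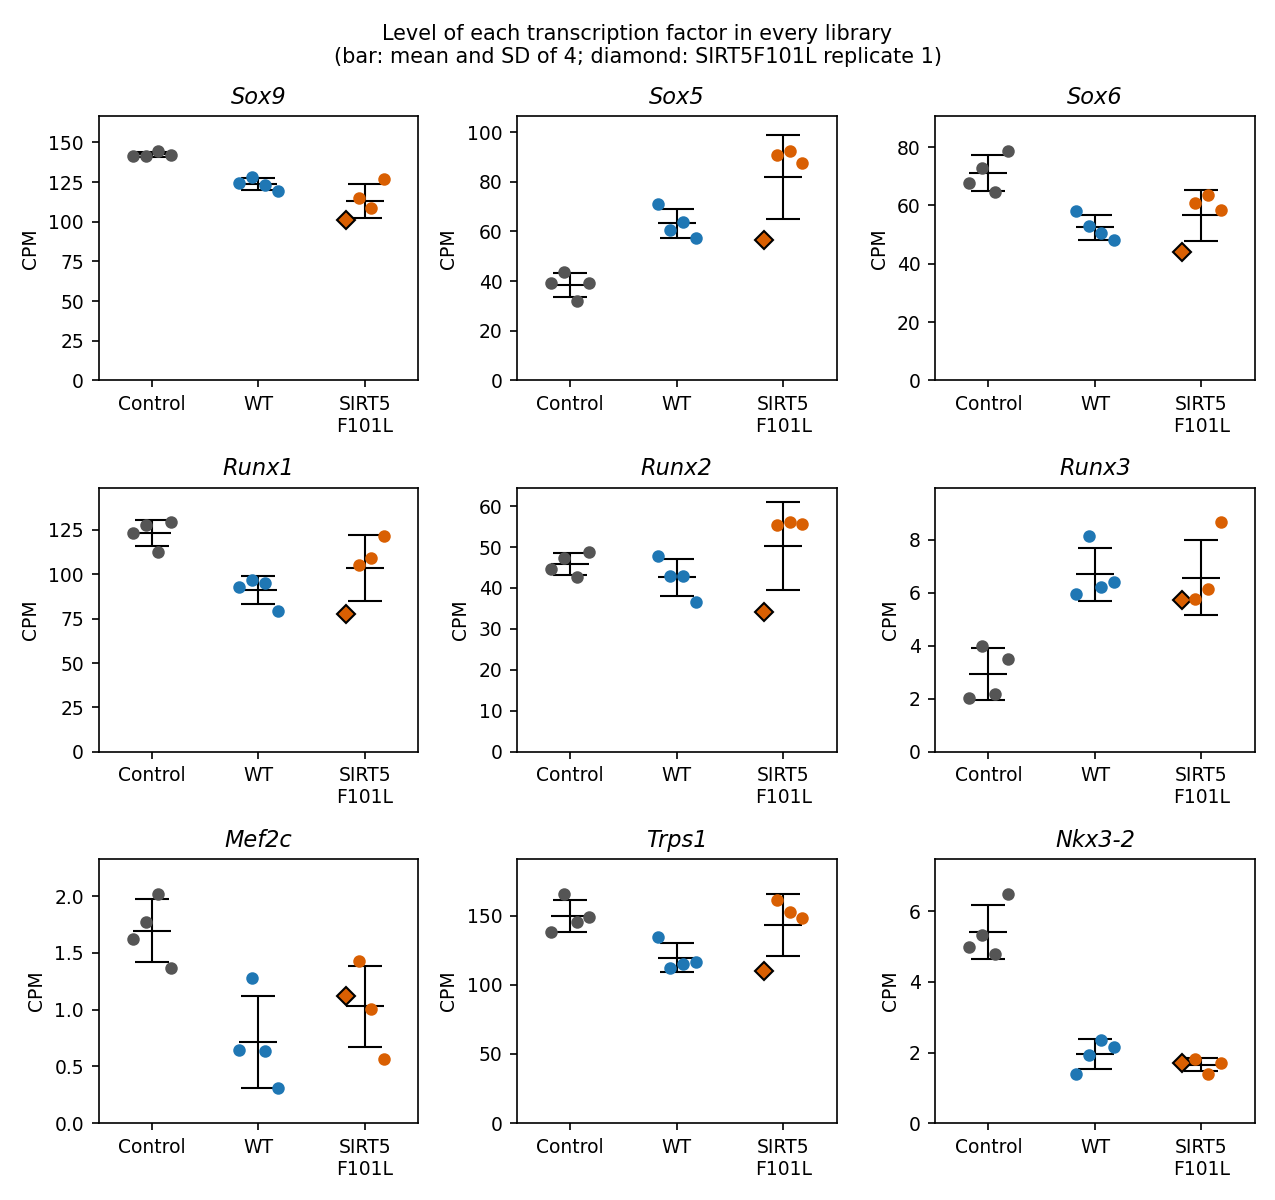
Level of the 9 transcription factors in CPM (vertical axes, each from 0) in every Control, WT and SIRT5F101L library, with the mean and SD of 4 as bars. SIRT5F101L replicate 1, the diamond, was the lowest of its group for 7 of the 9 genes.

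The SOX trio did not move as a unit. Sox9 and Sox6 fell in both plasmid groups, and Sox5 rose in both. Sox9 (ENSMUSG00000000567) was at 142, 141, 145 and 142 CPM in Control replicates 1 to 4, at 125, 128, 123 and 119 in WT, and at 101.3, 115, 109 and 127 in SIRT5F101L. Every plasmid library lay below every Control library. The fold change was 0.870 in WT (log2 -0.20, SE 0.06, edgeR adjusted p 0.0105) and 0.793 in SIRT5F101L (log2 -0.34, SE 0.06, edgeR adjusted p 0.000132). The spread of Sox9 within Control, 1.12% of its mean, was the smallest of the 9 genes.

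Sox5 (ENSMUSG00000041540) encodes the SOXD partner of SOX6. It was at 39.1, 43.7, 31.9 and 39.1 CPM in Control, at 71.1, 60.6, 63.9 and 57.3 in WT, and at 56.6, 91.0, 92.5 and 87.4 in SIRT5F101L. All plasmid libraries were above all Control libraries. SIRT5F101L replicate 1 lay just below the lowest WT library, and the other 3 lay above every WT library. The rise was 1.64-fold in WT (log2 0.72, SE 0.13, edgeR adjusted p 6.34e-05) and 2.13-fold in SIRT5F101L (log2 1.09, SE 0.13, edgeR adjusted p 2.91e-07), or 2.35-fold without replicate 1. Over the main fit and all alternatives the log2 value ran from 0.60 to 0.78 in WT and from 0.84 to 1.23 in SIRT5F101L. It was called each time. Exons of other genes cover 9.25% of the exon bases of Sox5, so part of its counts is uncertain, and gene counts do not separate its long isoform from its short one.

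Sox6 (ENSMUSG00000051910), the close relative of Sox5, moved the other way. It was at 67.8, 72.9, 64.7 and 78.7 CPM in Control, at 58.2, 52.9, 50.7 and 48.2 in WT, and at 43.8, 60.8, 63.4 and 58.3 in SIRT5F101L. No plasmid library reached the Control range, although SIRT5F101L replicate 3, at 63.4, lay close to the lowest Control library. The fold change was 0.739 in WT (log2 -0.44, SE 0.10, edgeR adjusted p 0.000723) and 0.797 in SIRT5F101L (log2 -0.33, SE 0.10, edgeR adjusted p 0.00635). Without SIRT5F101L replicate 1 the SIRT5F101L value was -0.22 (edgeR adjusted p 0.00849). With each library's trend on gene length taken out, it was -0.57 (edgeR adjusted p 1.76e-08).

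These opposite movements changed the makeup of the trio. The ratio of Sox5 to Sox6 in CPM was 0.541 ± 0.0542 (SD, n = 4) in Control, 1.20 ± 0.0487 in WT and 1.44 ± 0.0994 in SIRT5F101L. It ran from 0.493 to 0.599 in Control, from 1.147 to 1.26 in WT and from 1.29 to 1.5 in SIRT5F101L. The 3 ranges did not overlap, and SIRT5F101L replicate 1, at 1.29, also lay above every WT library. The exon lengths of Sox5 and Sox6 are alike, at 14.38 and 14.83 kb. This ratio was chosen after the levels were seen and carries no test. Per kb, Sox9 made up 82.2% ± 1.46 of the trio in Control, 79.1% ± 1.26 in WT and 74.3% ± 3.07 in SIRT5F101L, while Sox5 went from 6.38% ± 0.777 to 11.6% ± 0.827 and 15.4% ± 2.14. Sox9 is shorter, at 4.135 kb of exon. The part of each library's trend on gene length in these shares was not tested.

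**Figure D2:**
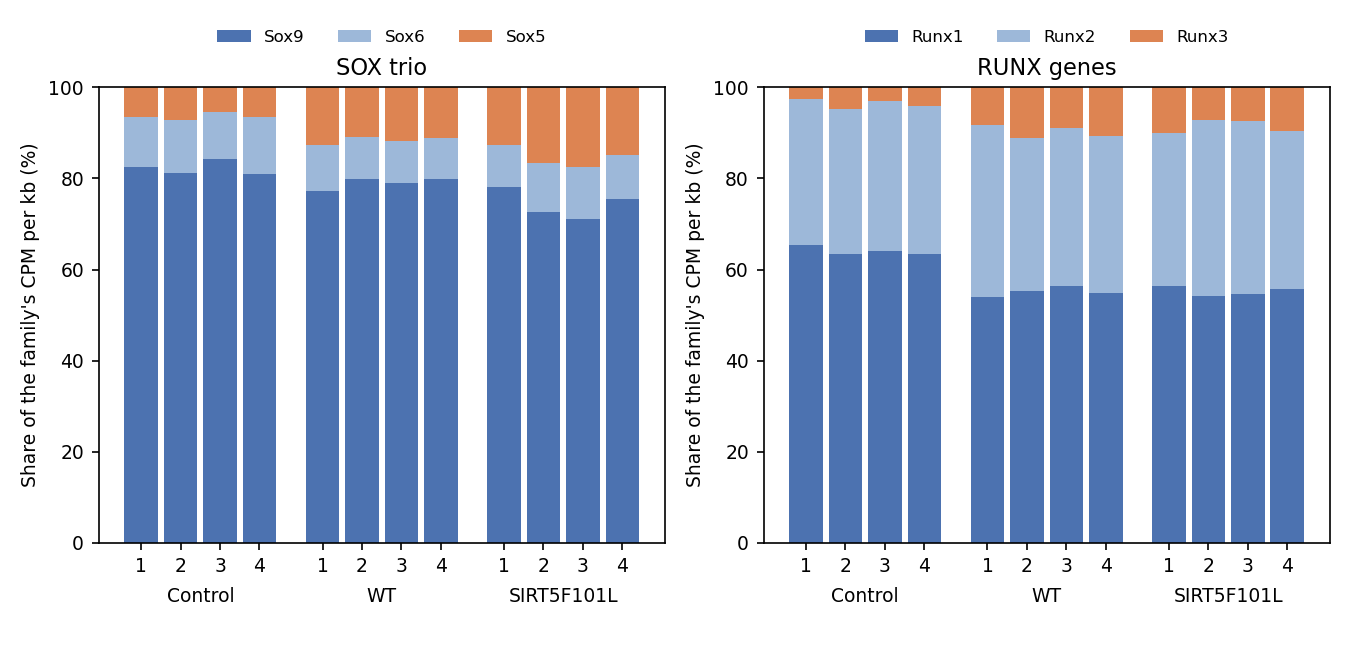
Share of each gene in its family's summed CPM per kb of exon (vertical axes, percent) in the 12 libraries, numbered by replicate within each group. The Sox5 segment was 5.34% to 7.21% in Control and at least 10.9% in every plasmid library, and the Runx3 segment was at most 4.78% in Control and at least 7.13% in every plasmid library.

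The 3 RUNX genes share a sequence in the RefSeq promoter windows, which span 250 bases before to 50 after an annotated start (build GRCm38.p6, not the GRCm39 build named for the counts). Of the 9 genes, 7 have a window in that table, and Sox9 and Trps1 do not. The RUNX binding motif AACCACA, searched on both strands, was found in 5.27% of all 32851 windows, and a pair of copies 1 base apart, AACCACAGAACCACA, in 4 windows. These were 1 window each of Runx1, Runx2 and Runx3 and 1 of the predicted gene Gm16225, which overlaps the Runx3 window and holds the same site. The other 13 windows of the 9 genes held neither. The 30 bases around each pair are shown because the 3 genes share the pair and differed in how their counts moved. Capitals mark the motif copies, and each sequence reads 5′ to 3′ on the strand of its gene.
Runx1 (chr16:92826025-92826054, minus strand): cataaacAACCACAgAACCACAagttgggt
Runx2 (chr17:44814583-44814612, minus strand): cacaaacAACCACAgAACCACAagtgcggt
Runx3 (chr4:135120503-135120532, plus strand): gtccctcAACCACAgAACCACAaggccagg
The first motif base lay 27 bases after the start in Runx1, 22 after it in Runx2 and 135 before it in Runx3. A match is a description of letters and not of binding. RUNX genes are also read from a second promoter, and gene counts sum transcripts from both.

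Runx1 (ENSMUSG00000022952) was the most abundant RUNX gene in every group. It was at 123, 128, 113 and 129 CPM in Control, at 92.9, 96.5, 94.97 and 79.4 in WT, and at 77.6, 105, 109 and 122 in SIRT5F101L. WT lay wholly below Control, while SIRT5F101L replicate 4 lay inside the Control range. The fold change was 0.737 in WT (log2 -0.44, SE 0.10, edgeR adjusted p 0.000923). In SIRT5F101L it was 0.840 (log2 -0.25, SE 0.10, edgeR adjusted p 0.0354), and this call was lost without any one of Control replicates 1, 2 and 4 and SIRT5F101L replicates 1 and 2. It was also lost with only the 8 libraries compared (-0.23, edgeR adjusted p 0.0748). Without SIRT5F101L replicate 1 the value was -0.13 (edgeR adjusted p 0.0852), and with the length trend taken out it was -0.47 (edgeR adjusted p 2.33e-06).

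Runx2 (ENSMUSG00000039153), the main RUNX gene of hypertrophy and bone, did not pass the test in either plasmid group with all 12 libraries. It was at 44.6, 47.2, 42.7 and 48.8 CPM in Control, at 47.8, 43.0, 42.9 and 36.7 in WT, and at 34.1, 55.5, 56.1 and 55.5 in SIRT5F101L. The groups overlapped in both comparisons, and SIRT5F101L replicate 1 lay below all other 11 libraries while the other 3 of its group lay above them. The log2 fold change was -0.11 in WT (95% interval -0.36 to 0.15, edgeR adjusted p 0.476). With each library's trend on gene length taken out it was -0.21 (edgeR adjusted p 0.0535), and it passed as lower when SIRT5F101L replicate 1 was left out as well (-0.21, edgeR adjusted p 0.00527), a combination chosen after the data were seen. It was 0.13 in SIRT5F101L (-0.12 to 0.39, edgeR adjusted p 0.351). Without replicate 1 this was 0.28 (SE 0.08, edgeR adjusted p 0.00164), and with the length trend taken out it was -0.0482. Other genes cover 5.87% of the exon bases of Runx2.

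Runx3 (ENSMUSG00000070691), the scarcest RUNX gene, rose in both plasmid groups. It was at 2.03, 4.01, 2.18 and 3.50 CPM in Control, at 5.97, 8.15, 6.24 and 6.43 in WT, and at 5.72, 5.78, 6.14 and 8.67 in SIRT5F101L. Every plasmid library was above every Control library, on 35 to 79 counts in Control and 89 to 153 in the plasmid groups. The rise was 2.26-fold in WT (log2 1.18, SE 0.21, edgeR adjusted p 6.75e-05) and 2.23-fold in SIRT5F101L (log2 1.16, SE 0.21, edgeR adjusted p 7.35e-05). Per kb, Runx3 went from 3.61% ± 1.01 of the RUNX genes in Control to 9.78% ± 1.3801 in WT and 8.51% ± 1.47 in SIRT5F101L, and Runx1 from 64.0% ± 0.919 to 55.1% ± 1.03 and 55.2% ± 1.04.

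Among the remaining factors Nkx3-2 fell in both plasmid groups. Nkx3-2 (ENSMUSG00000049691) was at 4.996, 5.32, 4.79 and 6.50 CPM in Control, at 1.382, 1.92, 2.37 and 2.16 in WT, and at 1.71, 1.82, 1.40 and 1.70 in SIRT5F101L. No plasmid library reached a level near Control, with 28 to 42 counts against 86 to 119. The fold change was 0.362 in WT (log2 -1.47, SE 0.20, edgeR adjusted p 2.55e-06) and 0.305 in SIRT5F101L (log2 -1.71, SE 0.20, edgeR adjusted p 3.79e-07). With all 12 libraries it was the largest change in size among the 9 genes in both comparisons, but without WT replicate 2 Mef2c changed by more in WT (-1.68 against -1.46). SIRT5F101L replicate 1 did not stand apart for Nkx3-2.

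Mef2c (ENSMUSG00000005583) was at 1.63, 1.77, 2.02 and 1.37 CPM in Control, at 0.641, 1.28, 0.635 and 0.309 in WT, and at 1.12, 1.43, 1.003 and 0.567 in SIRT5F101L. The WT libraries, on 6 to 20 counts, lay below Control, and the SIRT5F101L libraries overlapped it. Mef2c fell to 0.414 of Control in WT (log2 -1.27, SE 0.37, edgeR adjusted p 0.00602). In SIRT5F101L its log2 fold change of -0.73 (95% interval -1.45 to -0.00169, edgeR adjusted p 0.0773) did not pass, although it did with the length trend taken out (log2 -0.97, edgeR adjusted p 0.0212).

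Trps1 (ENSMUSG00000038679) was at 138, 166, 145 and 149 CPM in Control, at 135, 112, 115 and 117 in WT, and at 110, 161, 152 and 148 in SIRT5F101L. WT lay below Control, while 3 SIRT5F101L libraries lay within the Control range and replicate 1 lay below it. Trps1 fell to 0.799 of Control in WT (log2 -0.32, SE 0.09, edgeR adjusted p 0.00667). In SIRT5F101L its log2 fold change was -0.06 (95% interval -0.26 to 0.13, edgeR adjusted p 0.573), and it turned to 0.04 without replicate 1. With the length trend taken out it was -0.30 and passed (edgeR adjusted p 0.000327).

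**Figure D3:**
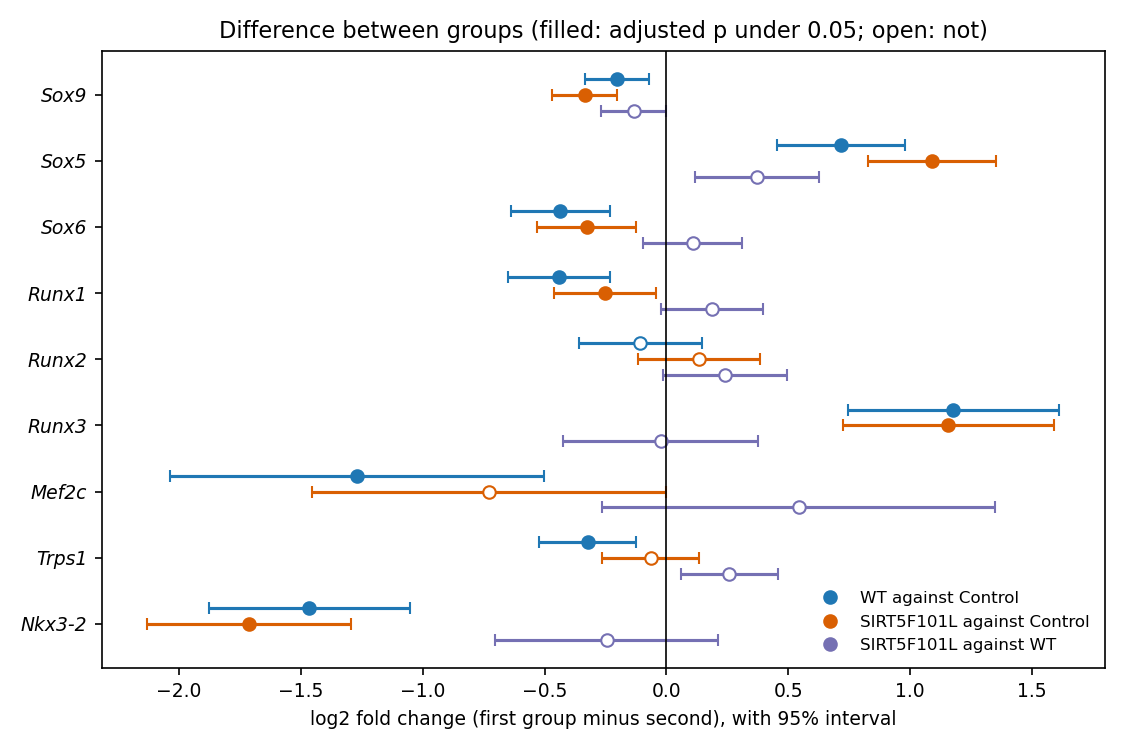
Log2 fold change of each gene with its 95% interval (horizontal axis) for WT against Control, SIRT5F101L against Control and SIRT5F101L against WT. Filled points passed an adjusted p of 0.05, and Sox5 and Runx3 are the genes to the right of 0 and Nkx3-2 the gene farthest to the left in both comparisons with Control.

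The mutant was then set against the wild-type plasmid directly. With all 12 libraries, 0 of the 9 genes differed in edgeR's test, where 6 of 14253 genes did (0.0421%), and 3 of the 9 had an unadjusted p under 0.05, as did 1701 of the 14253. DESeq2 also called 0 of the 9, with 2 at an unadjusted p under 0.05. None of the 9 was free of overlap between the plasmid groups, against 4.02% of tested genes. The 95% intervals of the log2 difference still allowed differences of some size: 0.12 to 0.63 for Sox5, 0.06 to 0.46 for Trps1, -0.01 to 0.49 for Runx2, -0.02 to 0.40 for Runx1 and -0.27 to -0.000782 for Sox9. They were -0.10 to 0.31 for Sox6, -0.42 to 0.38 for Runx3, -0.26 to 1.35 for Mef2c and -0.70 to 0.21 for Nkx3-2.

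This picture rested on SIRT5F101L replicate 1. That library held 0.612 times the Runx2 level of the mean of the other 3 libraries of its group, 0.626 times their Sox5, 0.692 times their Runx1, 0.716 times their Trps1 and 0.721 times their Sox6. For Mef2c and Nkx3-2 it lay within the range of the others. Without it, 5 of the 9 genes were called, all higher in SIRT5F101L, where 15.2% of tested genes were called, 6.66% higher and 8.58% lower. Sox5 was 1.43-fold higher (log2 0.51, SE 0.08, edgeR adjusted p 3.76e-05) and Runx2 1.31-fold (log2 0.39, SE 0.08, edgeR adjusted p 0.000694). Trps1 was 1.29-fold higher (edgeR adjusted p 0.000337), Runx1 1.24-fold (edgeR adjusted p 0.00271) and Sox6 1.16-fold (edgeR adjusted p 0.0428). Leaving out any one of the other 11 libraries called none of the 9.

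A trend on gene length moved with the same libraries. The slope of a library's log2 CPM on log2 exon length was 0.0671 to 0.0854 in SIRT5F101L replicates 2 to 4 and -0.0525 in replicate 1, against -0.0324 to 0.0421 in WT and -0.0528 to -0.0331 in Control. The 5 genes called without replicate 1 have 8.84 to 14.83 kb of exon sequence. Of the 4 not called, Mef2c is the longest of all 9 at 15.71 kb, and Sox9, Runx3 and Nkx3-2 have 4.135, 5.003 and 1.72 kb. With each library's length trend taken out as an offset and replicate 1 left out, a combination chosen after the data were seen, 2 of the 5 calls held, where 8.79% of tested genes were called. These were Sox5 (log2 0.33, edgeR adjusted p 0.00138) and Runx2 (log2 0.28, edgeR adjusted p 0.00797), while Trps1 had 0.19 (edgeR adjusted p 0.05001), Runx1 0.14 (0.161) and Sox6 0.02 (0.890). Without replicate 1 the slope and the plasmid cannot be told apart.

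**Figure D4:**
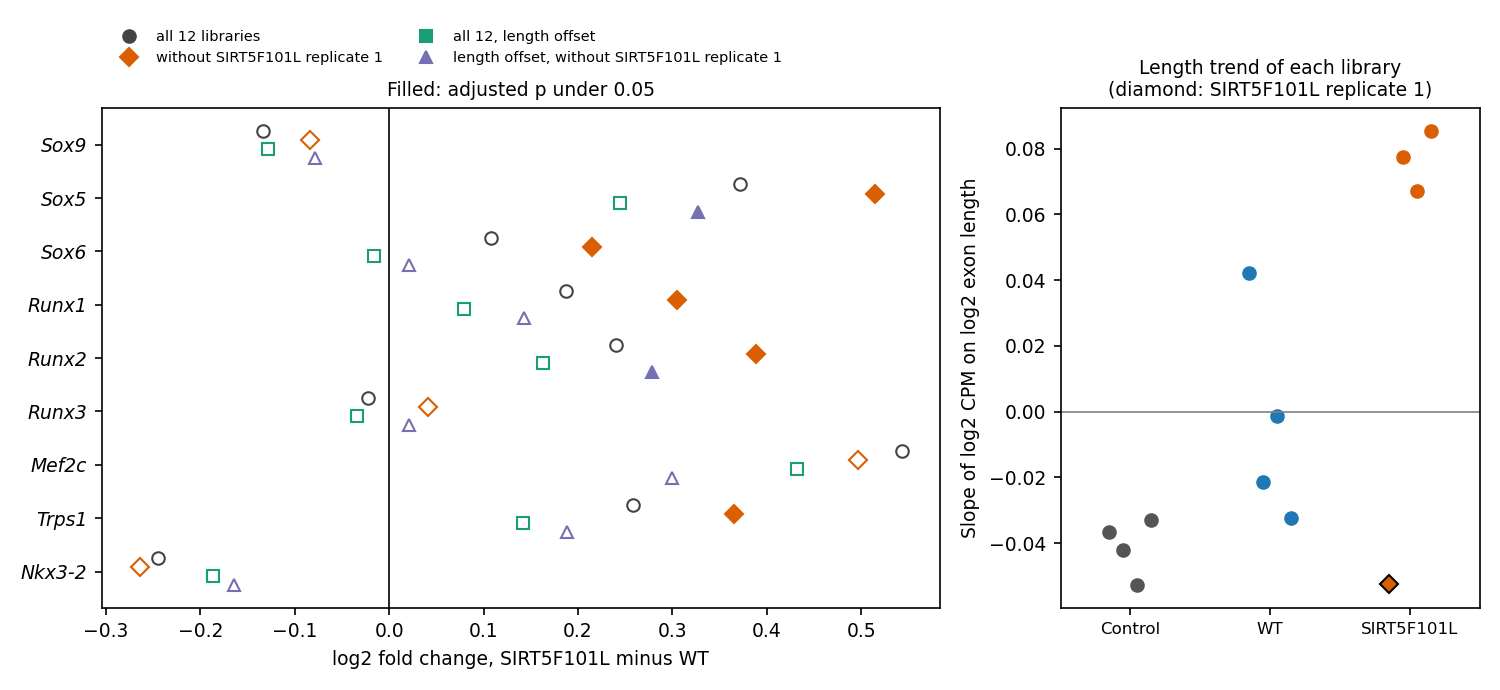
Left, log2 fold change of each gene between the plasmid groups (horizontal axis) with all libraries, without SIRT5F101L replicate 1, and with the length trend as an offset, filled where the adjusted p was under 0.05. Right, slope of log2 CPM on log2 exon length (vertical axis) in each library, where SIRT5F101L replicate 1, at -0.0525, lies apart from the other 3 of its group at 0.0671 to 0.0854.

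Genes known as targets of the SOX trio in cartilage were described from a list of 18, all of which were tested. The list holds all the chondrocyte markers, so its values and their summed level given above are not separate observations. In WT 15 of the 18 were lower and 2 higher, where 28.1% of all tested genes were lower and 28.7% higher. The median log2 fold change was -1.90, against -0.01 over all tested genes. In SIRT5F101L 15 were lower and 1 higher (30.7% and 30% of all tested genes), with a median of -2.57 against -0.02. Cnmd, the gene of the cartilage protein chondromodulin, fell from 111 ± 4.97 CPM (SD, n = 4) to 2.55 ± 0.375 in WT and 2.67 ± 0.925 in SIRT5F101L. Matn3, a cartilage matrilin, fell from 44.7 ± 1.46 to 3.86 ± 0.964 and 2.67 ± 0.353 CPM. The higher genes were Acan, the aggrecan core protein, in WT (log2 0.47) and Hapln1, its link protein, in both groups (log2 0.25 and 0.18). Sox9 itself changed by -0.20 and -0.34 in the same fit, smaller in size than the median of the list. Between the plasmid groups 1 of the 18 differed, Col11a2, which was lower in SIRT5F101L (log2 -0.63, edgeR adjusted p 0.0339), where 0.0421% of all tested genes differed. That call was lost without Control replicate 1, where no tested gene was called. Without SIRT5F101L replicate 1, 6 of the 18 were lower, where 8.58% of all tested genes were.

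Of 15 genes of hypertrophy and bone that RUNX proteins or MEF2C act on, 11 were tested, and 5 were higher and 5 lower in each plasmid group, where 56.8% of all tested genes in WT and 60.7% in SIRT5F101L were called. Col10a1, the collagen of hypertrophic cartilage, was listed at 0 in every library. Whether such a 0 means no transcripts or reads left uncounted was not tested. Spp1, the gene of osteopontin, rose 7.51-fold in WT and 7.97-fold in SIRT5F101L, and Mmp13, a collagenase, rose 5.89-fold and 7.08-fold. Ibsp, the gene of bone sialoprotein, fell from 14.7 ± 3.13 CPM to 0.284 ± 0.0867 and 0.146 ± 0.0991, and Dlx5, a homeobox gene of bone, from 16.1 ± 2.34 to 1.84 ± 0.501 and 2.19 ± 0.455. The median log2 fold change of the 11 was 0.09 in WT and 0.19 in SIRT5F101L. Without SIRT5F101L replicate 1 a 12th gene passed the filter, 5 were higher and 6 lower in each group (60.2% of all tested genes called in WT and 63.2% in SIRT5F101L), and the medians were -0.80 and -0.67. The osteoblast markers, of which Ibsp is one, were lower in the same libraries, and their part in these values was not tested.

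Genes whose proteins partner or restrain RUNX and MEF2 factors formed a list of 18, of which 17 were tested. In each plasmid group 8 were higher and 6 lower, beside the same 56.8% and 60.7% of all tested genes called. The median log2 fold change was 0.01 in WT and 0.34 in SIRT5F101L. Without SIRT5F101L replicate 1, 9 were higher and 6 lower in SIRT5F101L, where 63.2% of all tested genes were called. Hdac4, a histone deacetylase that holds MEF2C and RUNX2 back, rose from 22.0 ± 0.889 CPM to 53.5 ± 3.32 in WT and 59.8 ± 9.17 in SIRT5F101L. Twist2 rose from 3.73 ± 0.583 to 8.91 ± 1.43 and 10.5 ± 1.28 CPM, while its relative Twist1 fell from 145 ± 3.16 to 78.1 ± 5.75 and 68.2 ± 9.13. The corepressor gene Tle2 fell as well, by 0.80 and by 0.70 on the log2 scale. Cbfb, which encodes the dimer partner of RUNX proteins and was named here after its values were seen, fell from 96.3 ± 5.30 to 68.7 ± 3.67 and 71.0 ± 3.60 CPM.

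Relatives of the 9 genes were described in the same way. Of 12 other SOX genes 6 were tested, and 2 were higher and 1 lower in each plasmid group, a share close to the 56.8% and 60.7% of all tested genes. Without SIRT5F101L replicate 1, 7 were tested and 2 were higher and 2 lower, where 60.2% and 63.2% of all tested genes were called. Sox7 rose from 0.272 ± 0.104 CPM to 1.65 ± 0.676 and 1.98 ± 0.486. Its Control level rests on few counts, as 1 count was worth up to 0.0581 CPM there. The SE of its log2 fold change was 0.40 in each comparison with Control. Sox4, which is broadly expressed in progenitor cells, fell from 187 ± 7.11 to 85.1 ± 2.79 and 89.9 ± 3.85 CPM. All 3 other MEF2 genes passed the test in both groups. Mef2a rose from 7.07 ± 1.14 CPM to 12.9 ± 1.66 and 14.7 ± 3.31, Mef2d rose 1.35-fold and 1.378-fold, and Mef2b was lower (0.556 and 0.540 of Control).

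**Figure D5:**
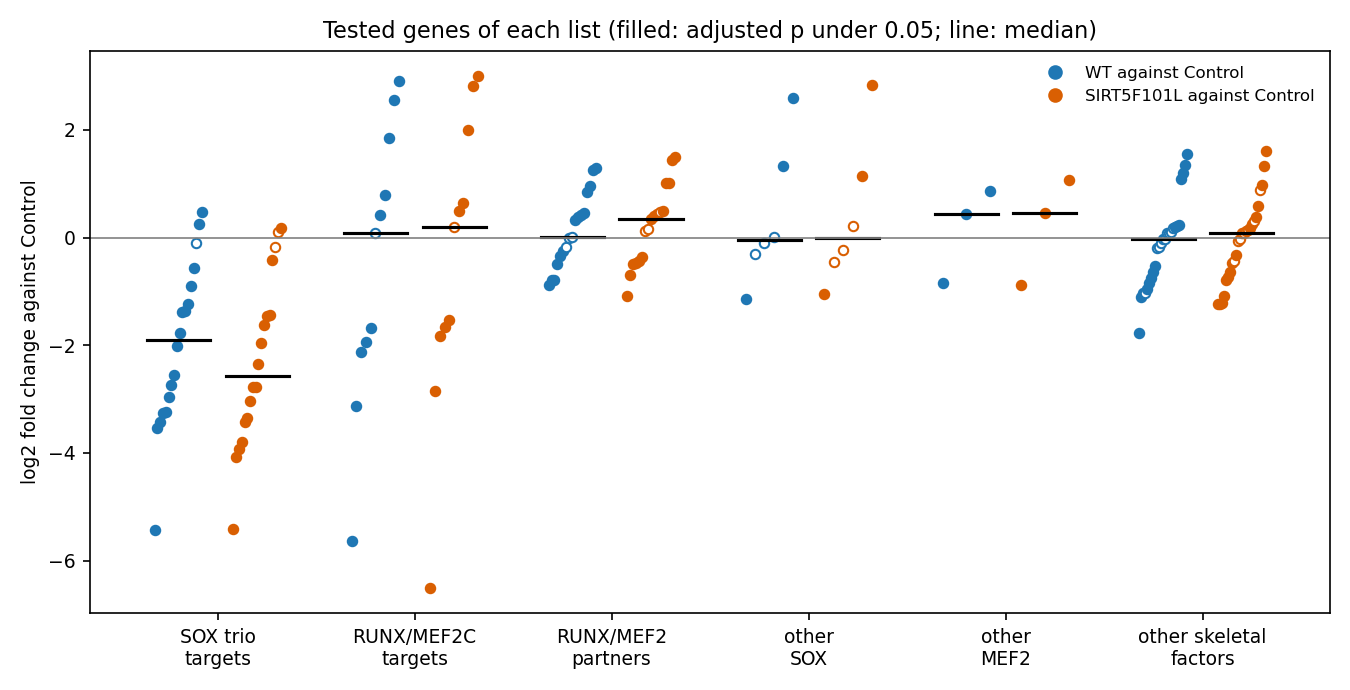
Log2 fold change against Control (vertical axis) of every tested gene in the 6 lists, for WT and SIRT5F101L, with the median as a line and filled points for an adjusted p under 0.05. The SOX trio targets lie mostly below 0, with medians of -1.90 and -2.57, and the other lists lie on both sides.

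For each of the 9 genes the tested gene with the most similar pattern was found among 9781 candidates, as the smallest root mean square difference of centred log2 CPM over the 12 libraries. It was Rgp1 for Sox9 (0.0478), Pde7b for Sox5 (0.0848), Sbf2 for Sox6 (0.0634), Srgap3 for Runx1 (0.0611) and Syne1 for Runx2 (0.0487). For Trps1 it was Fndc3a (0.0528), for Nkx3-2 Sat2 (0.140), for Runx3 Cnnm1 (0.177) and for Mef2c Elmo3 (0.376). The distance was largest for the 3 genes with the fewest counts.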

How the data were processed

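The authors deposited raw read counts for each Ensembl gene ID, as whole numbers. The submitters' processing notes name HISAT2 (2.2.1), HTSeq (2.0.2), DESeq2 (1.38.3) and the GRCm39 build. The strand setting is not given in the sources used here. The 9 genes and all lists were chosen with earlier results of these data known. Of 57010 IDs, 52029 matched a symbol.

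Counts were fitted with edgeR (4.0.16, R 4.3.3): TMM scaling (trimmed mean of M-values), the default expression filter, and 1 quasi-likelihood model for the 12 libraries (3 group means, so 9 residual degrees of freedom), tested 2-sided, adjusted by Benjamini-Hochberg over 14253 genes and called under 0.05. Standard errors are the log2 fold change divided by the square root of F. CPM values are TMM-scaled, and 1 count was worth 0.0401 to 0.0650 CPM. Exon lengths are unions of GENCODE M21 exons, known for 98.8% of tested genes, on an older build than the counts.

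The text names the 9 genes. From each list it names up to 2 called genes with the highest and 2 with the lowest fold change at a mean of at least 1 CPM, and per gene the nearest pattern at a mean of at least 5 CPM. The fit was tested on simulated data. Alternatives were RLE and upper-quartile scaling, 2 other filters, a robust prior, the 8 libraries compared, DESeq2 (1.42.0), a loess length offset (span 0.5) and leaving out each library. No pair of libraries was identical.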

Additional observations from a re-analysis of the deposited data

Results flagged for a closer look

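The level of each of the 9 genes was screened in each group for a library far from the other 3, by the ratio of its gap to the whole range (Dixon's test at the 95% level). Of 27 values screened 3 stood out, where chance, about 1 group in 20, gives about 1.35. Sox5 in SIRT5F101L replicate 1 was at 56.6 CPM, with the other 3 at 87.4 to 92.5. Runx2 in the same library was at 34.1 CPM, with the others at 55.5 to 56.1. Runx3 in SIRT5F101L replicate 4 was at 8.67 CPM, with the others at 5.72 to 6.14, and its rise against Control was still called without that library (log2 0.999, edgeR adjusted p 0.000424).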

How the results depend on the processing

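Over 8 kinds of alternative, the leaving out of each library and 1 combination added after the data were seen, 188 of 189 log2 fold changes of the 9 genes for WT against Control kept their direction and their side of the threshold, as did 176 of 189 for SIRT5F101L against Control and 174 of 189 between the plasmid groups. Between the plasmid groups the 6 genes called became 354 with no filter beyond 1 count, 2 with a robust prior, 2 with only the 8 libraries compared, 16 with the length offset, 37 in DESeq2 and 1277 with the length offset and SIRT5F101L replicate 1 left out. They ran from 0 to 2213 when 1 library was left out. The 0 called among the 9 genes became 2 with no filter (Sox5 and Trps1) and 2 with the offset and replicate 1 left out, and ran from 0 to 5 when 1 library was left out. With the length offset the value of Runx2 for SIRT5F101L against Control turned to -0.0482 and that of Sox6 between the plasmid groups to -0.0164, and with replicate 1 left out as well that of Runx3 between the plasmid groups turned to 0.0207. With 1 library left out, Runx3 between the plasmid groups ran from -0.18 to 0.0801 and Trps1 for SIRT5F101L against Control from -0.13 to 0.0428. With the length offset Trps1 was lower in SIRT5F101L than in Control (-0.30, edgeR adjusted p 0.000327), as was Mef2c (-0.97, edgeR adjusted p 0.0212). Apart from the length offset's own construction, the cause was not tested. Mef2c, with as few as 6 counts in a library, had the lowest level and the largest standard errors of the 9 genes. No paired analysis was possible because the labels number the libraries in 1 run and share no number between groups.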

Other observations

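Other transcription factors of cartilage and limb skeleton moved in both directions. Of 32 listed 25 were tested, and 7 were higher and 8 lower in WT, and 7 higher and 9 lower in SIRT5F101L (10 and 9 of 26 tested without SIRT5F101L replicate 1). These shares lie close to the 56.8% and 60.7% of all tested genes called in WT and SIRT5F101L, and without replicate 1 the share of all tested genes was 63.2%. Nfatc1, a calcium-regulated factor, rose from 53.3 ± 2.10 CPM (SD, n = 4) to 155 ± 5.67 in WT and 162 ± 15.6 in SIRT5F101L. Bhlhe40, a basic helix-loop-helix repressor, rose from 113 ± 6.44 to 261 ± 8.62 and 285 ± 13.4 CPM. Msx1, a homeobox gene of the limb, fell from 7.07 ± 0.948 to 2.06 ± 0.431 and 3.005 ± 0.569 CPM. Gli2, a hedgehog effector, fell to 0.464 of Control in WT and 0.580 in SIRT5F101L. Pax1, a sclerotome gene, fell to 0.517 and 0.427. Neither was called between the plasmid groups. Scx, Dlx6 and Hif1a of this list and Sox2 of the SOX list were listed at 0 in every library. Whether their transcripts were absent or their reads left uncounted was not tested.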
